A study of Mus musculus with 8 samples.

Results

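Dendritic cells capture antigen and present it to T cells, and 8 genes that mark their subsets were followed in Cd11b+ cells sorted from mouse bone marrow. Siglech and Ccr9 mark the plasmacytoid subset, and Xcr1, Batf3, Zbtb46, Irf4, Ccr7 and Cd209a mark conventional or monocyte-derived cells. The members were chosen by gene name, with earlier results of these data known. Every probe set annotated to one of them was taken, which gave 16 of 45037 probe sets, 8 of 18193 genes. A probe set is the group of short array probes that report one transcript. Ccr9 had 5 probe sets, Zbtb46 had 4, Irf4 had 2 and the other members had 1 each.

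The 4 experimental samples were labelled Mxcre;E2F1-/-2-/-3f/f, so E2f1 and E2f2 null with floxed E2f3 and the Mx-Cre transgene, a recombinase driven by an interferon-responsive promoter. The 4 control samples were labelled E2F1-/-2+/+3f/f, so they too were E2f1 null with floxed E2f3, but had intact E2f2 and no Cre. All mice were 8 weeks old, on a mixed FVB and C57BL6 background, and had been given pIpC, a synthetic RNA that triggers an interferon response, in 5 doses of 250 µg, and were killed 24 h later. The Cre transgene and the E2f2 genotype differ together, so their effects cannot be told apart, and the extent of E2f3 deletion in the sorted cells is not given in the labels. The labels do not say that each sample came from a separate animal, so the p-values rest on a spread between samples that may be partly technical.

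Plasmacytoid dendritic cells release type I interferon on sensing nucleic acids. Their identity depends on the E protein Tcf4, and in the mouse they carry little Cd11b. Conventional dendritic cells fall into type 1 cells, which need Batf3 and Irf8, display Xcr1 and also carry little Cd11b in the mouse, and type 2 cells, which depend in part on Irf4 and are Cd11b+. Monocytes can take on dendritic features, among them Cd209a, a relative of the human lectin DC-SIGN. Several members are not confined to dendritic cells: Irf4 and Ccr7 are also used by B and T cells, and Ccr9 by lymphoid cells.

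To show what the start regions of these genes hold, the 250 bases before the annotated start are printed for both plasmacytoid members, for Cd209a, which had the largest difference of the 8, and for Zbtb46, a pan-conventional factor that did not pass. They come from RefSeq on GRCm38.p6, which listed a promoter for 7 of the 8 members, and run 5′ to 3′ on the gene's strand. The windows lie at chr7:55767934-55768183 on the plus strand (Siglech), chr9:123766961-123767210 on the plus strand (Ccr9), chr8:3748985-3749234 on the minus strand (Cd209a) and chr2:181424389-181424638 on the minus strand (Zbtb46). Capitals mark the E-box CAGGTG or its reverse complement CACCTG, a sequence bound by E proteins.
Siglech: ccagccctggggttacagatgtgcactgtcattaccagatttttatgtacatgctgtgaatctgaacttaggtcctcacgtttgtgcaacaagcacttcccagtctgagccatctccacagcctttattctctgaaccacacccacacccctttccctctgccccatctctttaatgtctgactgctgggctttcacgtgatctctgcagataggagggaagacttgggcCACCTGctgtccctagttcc
Ccr9: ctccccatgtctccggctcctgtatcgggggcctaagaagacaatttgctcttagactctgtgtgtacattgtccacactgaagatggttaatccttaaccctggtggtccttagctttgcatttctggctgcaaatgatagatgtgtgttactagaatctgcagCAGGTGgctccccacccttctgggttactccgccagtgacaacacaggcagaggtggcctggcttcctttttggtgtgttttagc
Cd209a: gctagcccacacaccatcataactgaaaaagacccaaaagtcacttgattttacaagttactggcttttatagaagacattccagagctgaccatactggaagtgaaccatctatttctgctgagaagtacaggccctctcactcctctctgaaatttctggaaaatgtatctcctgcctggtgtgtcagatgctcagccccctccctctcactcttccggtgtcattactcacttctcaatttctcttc
Zbtb46: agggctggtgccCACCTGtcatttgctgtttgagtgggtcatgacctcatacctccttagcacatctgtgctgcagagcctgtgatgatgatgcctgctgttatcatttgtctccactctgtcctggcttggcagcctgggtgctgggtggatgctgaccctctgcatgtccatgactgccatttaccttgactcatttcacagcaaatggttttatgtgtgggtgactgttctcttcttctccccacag
The E-box lay 20 to 15 bases before the start in Siglech, on the minus strand, and 85 to 80 bases before it in Ccr9, on the plus strand. Zbtb46 held one as well, further off, at 238 to 233 bases before its start. Xcr1, Batf3, Irf4 and Cd209a had none in this window, and 17.2% of all 32851 promoters had at least 1. The AP-1 motif TGANTCA, bound by Batf family dimers, was found in Zbtb46 alone among the 7 members, against 6.75% of all promoters. No member held the E2F motif TTTNGCGC on either strand, which 1.13% of all promoters did. None of the motifs overlapped another in these windows. A match describes letters, not binding.

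Values below are log2 expression values after RMA, the summary and normalization named in the submitters' processing notes, and differences are experimental minus control on that scale. The arrays had medians of 5.01 to 5.04. Itgam, which encodes Cd11b itself, read 11.25 to 11.90 in experimental samples and 11.50 to 11.66 in controls, and the neutrophil genes measured averaged 13.22 to 13.52 in experimental samples and 13.50 to 13.62 in controls, so granulocyte markers were abundant in both groups. E2f2 read 9.08 to 9.53 in experimental samples and 9.54 to 10.20 in controls at its brightest probe set 1436434_at, which did not pass (difference -0.55 ± 0.16 SE, limma adjusted p = 0.107). At the dimmer 1455790_at it read 7.06 to 7.47 in experimental samples and 7.76 to 8.19 in controls (difference -0.66 ± 0.13 SE, limma adjusted p = 0.0351), while E2f3 at 1434564_at read 7.69 to 8.07 in experimental samples and 7.43 to 7.67 in controls (adjusted p = 0.201). The position of these probe sets against the targeted exons was not analysed here. RNA integrity, read as the 3′ to 5′ log2 signal ratio of beta-actin, was 0.34 to 0.54 in experimental arrays and 0.27 to 0.32 in controls, while that of Gapdh was -0.16 to 0.03 in experimental arrays and -0.14 to -0.09 in controls, with overlap.

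Of the 8 members, each by its brightest probe set, 5 were lower in experimental samples and none was higher at a limma adjusted p under 0.05, adjusted over all probe sets, and at an unadjusted p under 0.05 there were also 5 lower and 0 higher (9.8% and 9.08% of all genes). They were both plasmacytoid members and Irf4, Ccr7 and Cd209a, while Xcr1, Batf3 and Zbtb46 did not pass. Of all genes, 1.95% were called lower and 1.53% higher. The median difference over the 8 was -1.06, against 0.01 over all genes. Every experimental array lay below every control in 5 of the 8 members, the called ones, and in 6.79% of all genes. Over all 16 probe sets 5 were lower, against 1.55% of probe sets in all, and 7 had every experimental array below every control, against 6.15%. Because the members were chosen with earlier results of these data known, these shares describe the members and do not test them. In a bulk sample, fewer cells of a type and less RNA per cell cannot be told apart.

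**Figure D1:**
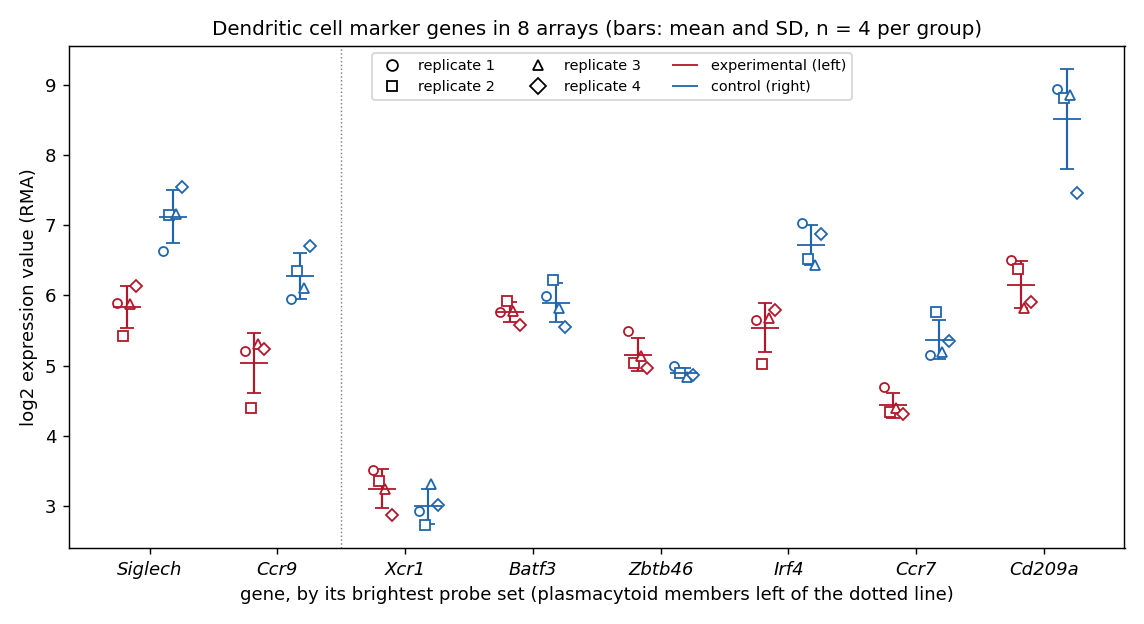
Log2 expression value of each member by its brightest probe set in every array, experimental arrays on the left of each pair and controls on the right; symbols give the replicate number and bars the mean and SD of 4 arrays. The groups are apart for Siglech, Ccr9, Irf4, Ccr7 and Cd209a and overlap for Xcr1, Batf3 and Zbtb46.

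Siglech, a receptor of plasmacytoid cells that signals through the adaptor Tyrobp, read 5.89, 5.43, 5.88 and 6.14 in experimental replicates 1 to 4, against 6.63, 7.15, 7.17 and 7.55 in control replicates 1 to 4. The highest experimental array lay below the lowest control. The means were 5.83 ± 0.30 in experimental samples and 7.12 ± 0.38 in controls (SD, n = 4 each), and the difference of -1.29 ± 0.20 (SE) is 2.45-fold lower (limma adjusted p = 0.0142). It was -1.23 among replicates 1 and 2 and -1.35 among replicates 3 and 4, whose sample codes are written in another style. What the code style marks is not given in the labels. It entered as a block in an alternative fit and not in the main fit. Without control replicate 2 the call was missed narrowly (adjusted p = 0.0501), and over the 8 fits with 1 array left out the adjusted p was 0.0141 to 0.0501.

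Ccr9, the receptor for the gut and thymus chemokine Ccl25, read 5.21, 4.39, 5.31 and 5.23 in experimental replicates 1 to 4 at its brightest probe set 1427419_x_at, against 5.94, 6.35, 6.11 and 6.71 in control replicates 1 to 4. The groups did not overlap, and experimental replicate 2 was the lowest array, as it was for Siglech. The difference was -1.24 ± 0.23 (SE, n = 4 per group), 2.37-fold lower (limma adjusted p = 0.0239), with -1.35 among replicates 1 and 2 and -1.14 among replicates 3 and 4. With 1 array left out it missed the threshold without control replicate 2 (adjusted p = 0.0789), control replicate 4 (0.0689) or experimental replicate 1 (0.0508), and the range was 0.0195 to 0.0789. The suffix of this probe set marks probes that can also bind other transcripts.

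The remaining Ccr9 probe sets were dimmer and did not all point the same way. At 1421920_a_at Ccr9 read 3.68 to 4.227 in experimental arrays and 4.232 to 5.25 in controls, so the groups barely parted (difference -0.71 ± 0.21 SE, adjusted p = 0.117). At 1421919_a_at it read 3.31 to 3.96 in experimental arrays and 3.70 to 4.74 in controls, with overlap (-0.63 ± 0.21, adjusted p = 0.168). A block for code style brought both past the threshold (adjusted p = 0.0441 and 0.0425), but the replicate block did not (0.0689 and 0.0538). The dimmest, 1442758_at and 1436065_at, averaged 3.16 and 2.98 over the 8 arrays, below the array medians, with differences of 0.27 ± 0.18 (adjusted p = 0.487) and 0.09 ± 0.10 (adjusted p = 0.703). When the 5 probe sets were averaged, Ccr9 differed by -0.44 and did not pass (adjusted p = 0.0928).

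In controls, replicate 4 was the highest and replicate 1 the lowest array for Siglech, and the same holds at each of the 3 brighter Ccr9 probe sets. In experimental samples, replicate 2 was the lowest array for all 4 of these probe sets.

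**Figure D2:**
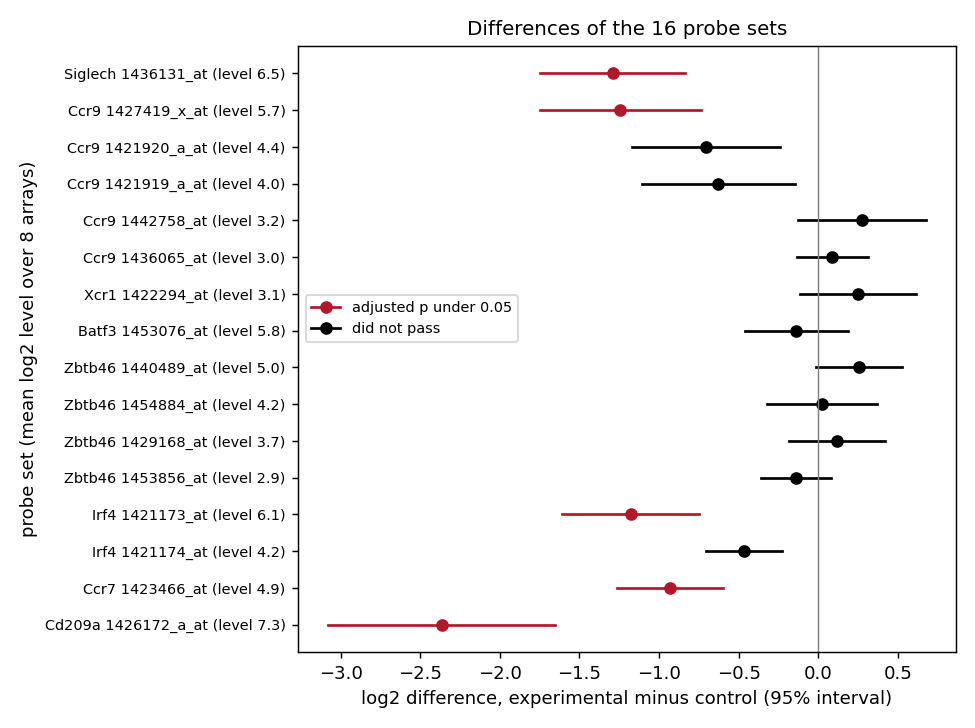
Log2 difference (experimental minus control) of each of the 16 probe sets with its 95% interval, with the mean level over 8 arrays in the label; filled red marks an adjusted p under 0.05. The 5 called probe sets lie below 0, and of the 11 others only Irf4 1421174_at and the next 2 probe sets of Ccr9 have intervals that leave out 0.

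Among markers of conventional cells, Xcr1, the receptor for the chemokine Xcl1 on type 1 cells, read 3.51, 3.36, 3.23 and 2.86 in experimental replicates 1 to 4, against 2.92, 2.72, 3.31 and 3.01 in control replicates 1 to 4. The groups overlapped at a level well under the array medians. The difference was 0.25 ± 0.16 (SE, n = 4 per group, 95% interval -0.12 to 0.62, limma adjusted p = 0.486), with 0.62 among replicates 1 and 2 and -0.12 among replicates 3 and 4.

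Batf3, the AP-1 family factor needed for type 1 cells, read 5.76, 5.92, 5.78 and 5.57 in experimental replicates 1 to 4, against 5.99, 6.23, 5.82 and 5.55 in control replicates 1 to 4. Replicate 2 was the highest and replicate 4 the lowest array in both groups. The difference of -0.14 ± 0.15 (SE, 95% interval -0.46 to 0.19) did not pass (limma adjusted p = 0.691).

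Zbtb46, a zinc finger factor shared by conventional dendritic cells and absent from plasmacytoid ones, read 5.49, 5.03, 5.14 and 4.97 in experimental replicates 1 to 4 at its brightest probe set 1440489_at, against 4.99, 4.89, 4.84 and 4.87 in control replicates 1 to 4. Experimental replicate 4 lay within the controls and the other experimental arrays above them. The difference of 0.26 ± 0.12 (SE, 95% interval -0.01 to 0.53) did not pass (limma adjusted p = 0.317). The other 3 probe sets of Zbtb46 differed by 0.02 (1454884_at), 0.12 (1429168_at) and -0.14 (1453856_at), and none passed (adjusted p = 0.519 to 0.963).

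Irf4, an interferon regulatory factor of type 2 cells and of activated B and plasma cells, read 5.66, 5.02, 5.68 and 5.79 in experimental replicates 1 to 4 at 1421173_at, against 7.03, 6.52, 6.43 and 6.87 in control replicates 1 to 4. The groups did not overlap, and experimental replicate 2 was again the lowest array. The difference of -1.18 ± 0.19 (SE, n = 4 per group) is 2.26-fold lower (limma adjusted p = 0.0157), with -1.44 among replicates 1 and 2 and -0.92 among replicates 3 and 4. Leaving out control replicate 4 ended the call (adjusted p = 0.0564, within 0.0151 to 0.0564 across such fits). The second Irf4 probe set, 1421174_at, read 3.82 to 4.13 in experimental arrays and 4.26 to 4.56 in controls and missed the threshold (-0.47 ± 0.11, adjusted p = 0.0525). It passed with code style as a block (0.0366), with quantile normalization (0.0365), with array weights (0.0476) and without experimental replicate 1 (0.0462), but not with the replicate block (0.0593).

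Ccr7, the receptor that guides mature dendritic cells and lymphocytes to lymph nodes along Ccl19 and Ccl21, read 4.70, 4.34, 4.40 and 4.30 in experimental replicates 1 to 4, against 5.15, 5.76, 5.20 and 5.35 in control replicates 1 to 4. No experimental array reached the lowest control. The difference was -0.93 ± 0.15 (SE, n = 4 per group), 1.91-fold lower (limma adjusted p = 0.0151), and nearly alike in the code styles, at -0.94 among replicates 1 and 2 and -0.93 among replicates 3 and 4. The call was lost when control replicate 4 was left out (adjusted p = 0.0505, in a range of 0.0215 to 0.0505 across such fits).

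Cd209a read 6.51, 6.37, 5.83 and 5.91 in experimental replicates 1 to 4, against 8.94, 8.82, 8.86 and 7.46 in control replicates 1 to 4. Control replicate 4 stood well below the other controls, yet above every experimental array, although the same array was the highest control for Siglech and Ccr9. The means were 6.16 ± 0.34 in experimental samples and 8.52 ± 0.71 in controls (SD, n = 4 each), 5.15-fold lower (difference -2.37 ± 0.32 SE, limma adjusted p = 0.00794). The difference was -2.44 among replicates 1 and 2 and -2.29 among replicates 3 and 4, and it held whichever array was left out (adjusted p = 0.00164 to 0.0325). Without control replicate 4 it was -2.72.

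Called members of both sets were lower, while Xcr1, Batf3 and Zbtb46, which did not pass, had differences of 0.25, -0.14 and 0.26. Siglech and Ccr9 together averaged 4.91 to 5.69 in experimental arrays and 6.29 to 7.13 in controls, with a median difference of -1.27. The 6 conventional and monocyte-derived markers averaged 4.90 to 5.27 in experimental arrays and 5.52 to 5.84 in controls, with a median difference of -0.53, and 3 of them fell. The 3 that fell were those used by type 2, mature or monocyte-derived cells, and the 3 that did not pass were the type 1 markers Xcr1 and Batf3 and the pan-conventional Zbtb46. Xcr1 averaged 3.12 over the 8 arrays, a level at which a fall could hardly show. None of 11 further type 2 or monocyte-derived genes passed, and Irf4 and Ccr7 are also used by B and T cells. No test was made between these sets of members.

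Among the other Cd209 lectins, 2 of 6 fell and none rose, with a median difference of -0.20. Cd209d read 4.82, 4.85, 4.78 and 4.82 in experimental replicates 1 to 4, against 5.37, 5.71, 5.92 and 5.50 in control replicates 1 to 4 (difference -0.81 ± 0.12 SE, limma adjusted p = 0.0118), and passed whichever array was left out. Cd209c read 3.98 to 4.10 in experimental arrays and 4.37 to 4.61 in controls (-0.42 ± 0.09, adjusted p = 0.0399), but passed in none of those fits (adjusted p = 0.0591 to 0.104) and not with the replicate block (0.0505). Cd209b, Cd209e, Cd209f and Cd209g had differences of -0.12, -0.15, -0.25 and -0.08 and did not pass. The sequences of these lectins are related, and whether their probes bind each other's transcripts was not tested.

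Of 9 further plasmacytoid genes measured, 2 fell and none rose, with a median difference of -0.27. Spib, an ETS factor of plasmacytoid and B cells, read 5.97, 4.66, 5.94 and 6.08 in experimental replicates 1 to 4, against 8.51, 7.94, 7.78 and 8.32 in control replicates 1 to 4 (difference -2.48 ± 0.30 SE, limma adjusted p = 0.00575). Ly6d, a surface protein of early B cells and of plasmacytoid precursors, read 6.71, 5.10, 6.34 and 6.63 in experimental replicates 1 to 4, against 8.41, 8.84, 8.24 and 8.29 in control replicates 1 to 4 (-2.25 ± 0.32, adjusted p = 0.00985). In both, experimental replicate 2 was the lowest array. Both also passed whichever array was left out.

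The factor Tcf4 itself read 7.54, 6.58, 7.42 and 7.73 in experimental replicates 1 to 4, against 7.51, 7.72, 7.51 and 7.62 in control replicates 1 to 4, with experimental replicate 2 the lowest array and the groups overlapping. Its difference was -0.27 ± 0.22 (SE, n = 4 per group) and did not pass (limma adjusted p = 0.577). Bst2, an interferon-inducible antigen of plasmacytoid cells, ranged from 6.44 to 9.39 in experimental arrays and from 7.48 to 8.08 in controls. Pld4 read 8.40 to 10.28 in experimental arrays and 9.42 to 9.74 in controls, with differences of -0.73 among replicates 1 and 2 and 0.47 among replicates 3 and 4. Cox6a2 had a difference of -0.54 ± 0.15 (adjusted p = 0.1002), which passed without control replicate 1 (0.0485) but not with the replicate block (0.0827).

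None of 9 further type 1 genes and none of 11 further type 2 or monocyte-derived genes passed, with median differences of 0.11 and -0.32. The brightest of each were Wdfy4, which type 1 cells need to present antigen from dead cells (0.28 ± 0.09 SE, n = 4 per group, limma adjusted p = 0.160), and Sirpa, an inhibitory receptor of type 2 cells and other myeloid cells (-0.07 ± 0.10, adjusted p = 0.791). At an unadjusted limma p under 0.05, 2 of the first list were higher and 3 of the second lower, where 9.08% of all genes were higher and 9.8% lower. Tlr3, the sensor of double-stranded RNA on type 1 cells, lay above the controls in every experimental array (0.65 ± 0.17, adjusted p = 0.0776). It passed with the replicate block (0.0476) but not with code style as a block (0.0539). The mean of Tlr3 over all arrays was 4.32, below the array medians. Irf8, required by type 1 and plasmacytoid cells, ranged from 7.78 to 10.35 in experimental arrays and from 8.97 to 10.06 in controls (-0.08 ± 0.52, adjusted p = 0.962). Itgax, which encodes the dendritic integrin Cd11c, differed by -1.28 among replicates 1 and 2 and by 0.04 among replicates 3 and 4.

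Of 9 genes of maturation and migration, Cd83, a surface protein of mature dendritic cells and activated B cells, was the 1 that fell, and the list median was 0.06. It read 5.03, 5.27, 3.58 and 4.60 in experimental replicates 1 to 4, against 7.21, 6.91, 6.04 and 5.96 in control replicates 1 to 4 (difference -1.91 ± 0.39 SE, limma adjusted p = 0.0363). The groups did not overlap, and the difference was -1.91 in each code style. With 1 array left out, Cd83 kept its call when that array was experimental replicate 2 or 3 and lost it for each of the other 6 (adjusted p = 0.0254 to 0.117), and also with inferred sex as a block (0.0711). Cd40, a costimulatory receptor, was also below the controls in every experimental array (-0.45 ± 0.11, adjusted p = 0.0678) and passed with code style as a block (0.0387) but not with the replicate block (0.0548). Fscn1, the actin bundler of migrating dendritic cells, read 6.90 to 7.08 in experimental arrays and 6.68 to 7.11 in controls.

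**Figure D3:**
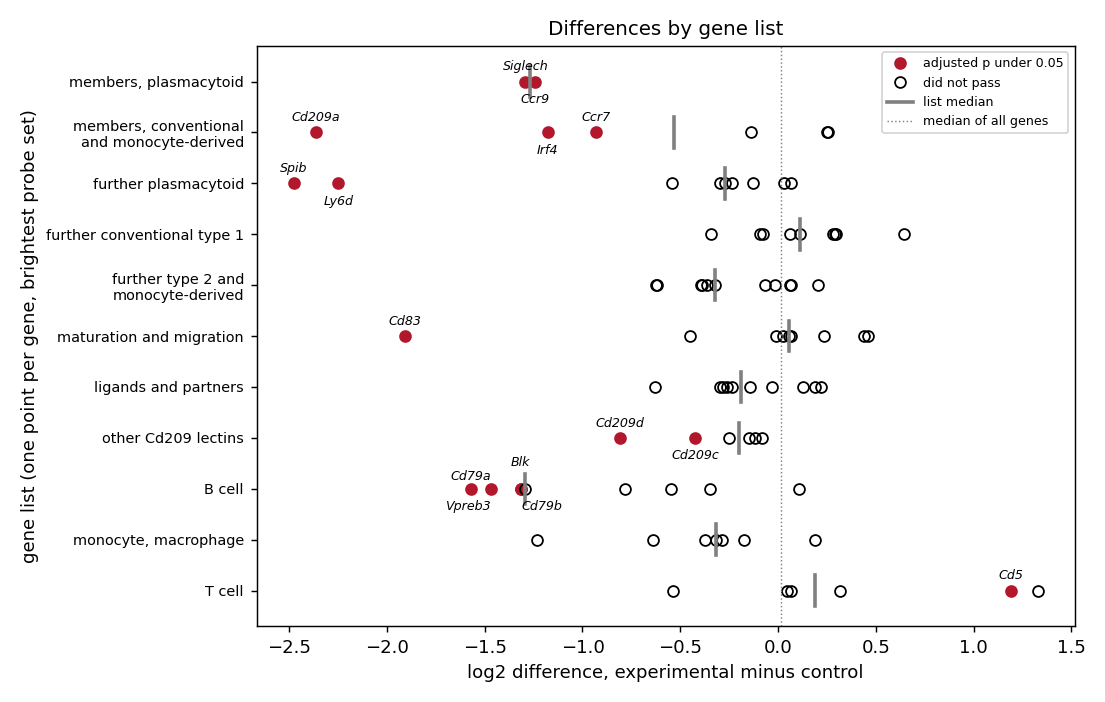
Log2 difference (experimental minus control) of each gene by list, with called genes filled and named, the list median as a grey bar and the median of all genes as a dotted line. Called genes lie at -0.42 to -2.48, except the T cell gene Cd5 at 1.19.

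None of the 10 measured ligands and partners of the members passed the limma test, with 2 lower at an unadjusted p under 0.05 and a list median of -0.19. The brightest, Tyrobp, the adaptor through which Siglech signals, read 13.11 to 13.33 in experimental arrays and 13.43 to 13.63 in controls (difference -0.30 ± 0.09 SE, n = 4 per group, limma adjusted p = 0.125). Junb, which pairs with Batf family factors, was below the controls in every experimental array (-0.63 ± 0.16, adjusted p = 0.0684, or 0.0374 with the replicate block). Spi1, which encodes PU.1, a partner of Irf4 on DNA, differed by -0.03.

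Markers of other cell types moved beside these members. Of 9 measured B cell genes 4 fell and none rose, and their mean level was 6.07 to 6.64 in experimental arrays and 7.03 to 7.53 in controls. The list median was -1.29, beside -1.27 for the plasmacytoid members. At an unadjusted limma p under 0.05, 7 were lower and 0 higher (9.8% and 9.08% of all genes). The brightest, Ighm, differed by 0.11 and did not pass (limma adjusted p = 0.915). Cd79a and Cd79b, the signalling chains of the B cell receptor, had differences of -1.57 ± 0.16 and -1.31 ± 0.24 (SE, limma adjusted p = 0.00258 and 0.0233), Blk, a B lineage kinase, -1.32 ± 0.13 (0.00258) and Vpreb3, of pre-B cells, -1.47 ± 0.25 (0.0195). Without control replicate 1, 2 or 4 Cd79b did not pass, and without control replicate 4 or experimental replicate 1 Vpreb3 did not. B cells also use Irf4, Ccr7, Spib, Ly6d and Cd83, and the part of B cells in the lower values of these genes was not tested.

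None of 7 monocyte and macrophage genes passed the limma test (3 lower at an unadjusted p under 0.05), and their mean level was 8.9998 to 10.36 in experimental arrays and 10.03 to 10.32 in controls. The brightest, F13a1, differed by 0.19 ± 0.36 (SE, limma adjusted p = 0.843), and it alone of this list had a difference above zero. The list median was -0.31. Cx3cr1 (-1.23 ± 0.42, adjusted p = 0.169) and Cd68 (-0.37 ± 0.13, adjusted p = 0.189) lay below the controls in every experimental array, as did 6.79% of all genes. None of 6 plasma cell genes, 5 NK cell genes or 7 neutrophil genes passed the limma test, with Xbp1 at -0.18, Gzma at -0.16 and S100a9 at -0.06. With the replicate block the plasma cell genes Sdc1 and Mzb1 were lower (adjusted p = 0.0496 and 0.0208), as was the B cell gene Ebf1 (0.0124). At an unadjusted p under 0.05, 2 plasma cell genes were lower, 2 NK cell genes higher and 0 neutrophil genes were on either side. In the T cell list Cd5 rose (1.19 ± 0.18, adjusted p = 0.0116), 1 of 6, and the mean level was 6.19 to 6.74 in experimental arrays and 5.25 to 6.33 in controls. At an unadjusted p under 0.05, 3 of this list were higher and 0 lower (9.08% and 9.8% of all genes). Its brightest, Cd3d, differed by -0.54 (adjusted p = 0.793). Control replicate 1 read 7.92 for Cd3d and the other controls 11.49 to 12.05.

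**Figure D4:**
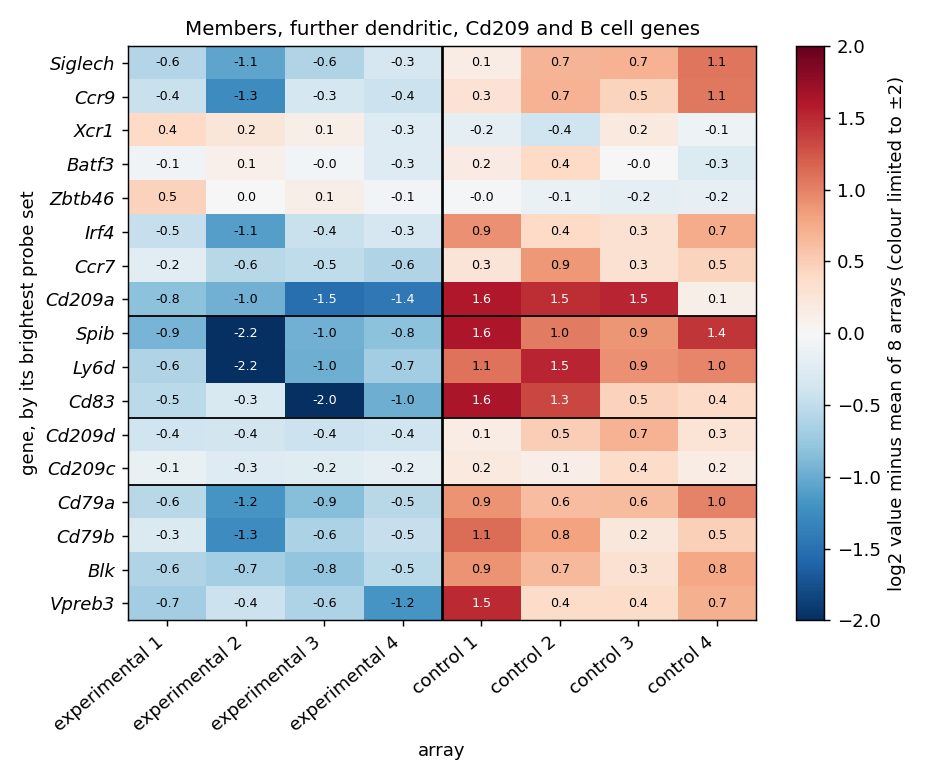
Log2 value minus the gene's own mean over 8 arrays, with the experimental arrays on the left and controls on the right, for the 8 members, further dendritic genes, Cd209 lectins and B cell genes that passed. Xcr1, Batf3 and Zbtb46 stay between -0.4 and 0.5, while Spib and Ly6d fall to -2.2 in experimental replicate 2.

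Genes near each called member were searched for outside the 8 members, with Riken and predicted loci left out. Nearness was the root mean square distance, in log2 units, between the 8 values of each gene centred on its own mean. Distances between members were not listed. Nearest to Siglech were Gimap9 (0.20), Havcr1 (0.22) and the platelet chemokine gene Pf4 (0.25), where the SD of Siglech over the 8 arrays was 0.76. Nearest to Ccr9 were Havcr1 (0.22), Plekha8 (0.22) and Gimap9 (0.23), with an SD of 0.75 for Ccr9. Irf4 was nearest to Pafah1b3 (0.10), Aff3 (0.14) and Otud1 (0.18), and Ccr7 to Tppp (0.10), Arg2 (0.13) and Vwf (0.15). For Cd209a the nearest were Tmem45a2 (0.49), Thbs1 (0.50) and Cd83 (0.52), against an SD of 1.37. These distances describe 8 arrays that differ by group, so any gene lower by a like amount comes near.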

How the data were processed

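Biotin-labelled cRNA from 2.5 µg of total RNA per sample was hybridised to Affymetrix mouse arrays. The authors deposited log2 values for each probe set, made with RMA (background correction, quantile normalization and summary of probes) per the submitters' processing notes. Its version, and whether it was run on all 8 arrays at once, are not stated in those notes.

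After 64 control probe sets were left out, 45037 probe sets were fitted in R 4.3.3 by limma 3.58.1 with 1 term for the group (lmFit, eBayes). P-values were adjusted by Benjamini-Hochberg over all of them, with a threshold of 0.05. Gene names came from the platform annotation: 34945 probe sets had 1 symbol, 932 several and 9160 none. For each gene the brightest probe set, by mean over the 8 arrays, was used. The members and lists were chosen with earlier results of these data known. Named are all member probe sets and up to 3 called genes of each other list (its brightest gene where none passed). The 3 genes nearest to each called member, with members, Riken and predicted loci left out, are named too. Other names were chosen after their values were seen. The fit was checked on simulated arrays.

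Same-numbered experimental and control arrays deviated together (correlations of 0.20 to 0.26 across probe sets in 4 pairs). Other arrays of like code style correlated at 0.14 to 0.26 and those of the other style at -0.27 to -0.13. The ranges of same-numbered arrays and of others of like style overlap, so these correlations do not show pairing by number. The main fit had no term for pairing, and the replicate number entered as a block in an alternative only. Alternatives were quantile normalization, median centring, 2 filters on low values, trended or robust variance, array weights, blocks for replicate, code style and inferred sex, averaging a gene's probe sets, and leaving out each array. The number of arrays limits the precision.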

Additional observations from a re-analysis of the deposited data

Results flagged for a closer look

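A sample far from the other 3 of its group was looked for in the 16 member probe sets in both groups, 32 sets of 4 values, and 4 were found, where chance gives about 1 in 20. Experimental replicate 2 was low at Ccr9 1427419_x_at (4.39, the next experimental array 5.21), at Ccr9 1421920_a_at (3.68, the next 4.15) and at Irf4 1421173_at (5.02, the next 5.66). These probe sets come from 1 array, and 2 of them from 1 gene. Without that array the differences were -1.03 for Ccr9 1427419_x_at, -0.58 for Ccr9 1421920_a_at and -1.01 for Irf4 1421173_at. Control replicate 4 was low at Cd209a 1426172_a_at (7.46, the next control 8.82), and without it Cd209a differed by -2.72.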

How the results depend on the processing

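The 5 called members were lower under every alternative that tested them, and the number past the threshold was 5 with the replicate block, with code style or with inferred sex as a block. It was 3 among probe sets with a mean of at least 6, since fewer members were tested there, and between 2 (without control replicate 4) and 5 without 1 array, with 3 without control replicate 2. Of the 16 probe sets, 5 were lower with the replicate block, 8 with code style as a block, 3 with the same filter, and 2 to 5 without 1 array. None was higher under any alternative (0 without any 1 array). Of 38 further dendritic cell genes, 3 were lower in the main fit, with 2 to 3 without 1 array. The number was 4 with code style as a block, which added Cd40, and 4 with a gene's probe sets averaged. It was 2 with inferred sex as a block and 2 among probe sets with a mean of at least 6. Higher were 0 of them, except 1 (Tlr3) with the replicate block. Zbtb46 1454884_at turned to -0.024 with array weights, -0.03 without control replicate 2 and -0.10 without experimental replicate 1, and passed in none, with values of -0.10 to 0.16 without 1 array. The cause was not tested. Over all probe sets, 1162 were called, against 2277 with the replicate block, 2582 with code style and 663 with inferred sex as a block, and 395 to 1744 without 1 array. Sex was read from Xist and Eif2s3y (1 male of 4 experimental, 2 of 4 control samples). The replicate block ended the call of Cd209c and of no other gene called in the lists. Inferred sex as a block ended those of Cd209c and Cd83.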
